A study of Mus musculus with 16 samples.

Results

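Processed pseudogenes are the subject of these results. They were taken as every row of the deposited transcript matrices whose gene type is processed_pseudogene or transcribed_processed_pseudogene in the mouse annotation, leaving out 3 symbols, Ubb-ps, Gm15772 and Gm10136. This gave 10240 rows, each from a gene of its own, of the 142435 rows in each matrix. Of these, 9305 were of the plain type and 935 were annotated as transcribed. The rows come from bulk RNA-seq of frontal cortex (FC) and cerebellum (Cere) of adult mice, in which mice that lack Upf3b (Upf3b-KO) were compared with littermates (Ctrl) to find RNAs that depend on UPF3B in each brain region. UPF3B acts in nonsense-mediated RNA decay (NMD), a pathway that degrades a subset of RNAs. The 4 groups were FC Ctrl, FC Upf3b-KO, Cere Ctrl and Cere Upf3b-KO, with 4 libraries each, and the labels give tissue and genotype but neither sex nor an exact age, nor whether libraries of both regions with the same number come from 1 mouse.

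A processed pseudogene is a copy of a spliced messenger RNA that was turned back into DNA and inserted elsewhere in the genome. It therefore has the exon sequence of its parent gene without the introns and usually without a promoter of its own, and it collects mutations with time, so that an old copy is easily told from its parent and a young copy is nearly identical to it. Messenger RNAs that are abundant in the germ line, such as those of ribosomal proteins and of the glycolytic enzyme Gapdh, have left the most copies. In RNA-seq, reads from a stretch that copy and parent share cannot be placed by sequence alone, and RSEM, the program that produced these values, divides them between the candidate transcripts by a model.

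Sequences of 6 parent genes and their copies are shown first, because the closeness of copy and parent decides which reads can be told apart. For each, an 80-base window of the transcript is printed 5′ to 3′ for the parent and for each copy that was called higher in Upf3b-KO in both regions, with every base that differs from the parent in capitals. Each window runs across an exon junction of the parent, so that the parent lies in 2 stretches of the genome and the copy in 1 (GRCm39 coordinates, strand given, sequence from GENCODE vM39 transcripts).

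Rpl3, a protein of the large ribosomal subunit, was read from chr15:79966591-79966650 and chr15:79965965-79965984 (minus strand), and its copy Rpl3-ps1 from chrX:13068947-13069026 (plus strand). No base differs here, and 2 of 1210 aligned bases differ over the whole copy.
Rpl3: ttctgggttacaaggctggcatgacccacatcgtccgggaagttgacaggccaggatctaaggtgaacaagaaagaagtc
Rpl3-ps1: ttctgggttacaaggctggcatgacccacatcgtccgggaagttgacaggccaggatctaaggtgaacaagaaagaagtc

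Tmx2, a membrane protein of the thioredoxin family, was read from chr2:84506441-84506500 and chr2:84506183-84506202 (minus strand), and its copy Gm5499 from chr17:87385889-87385968 (plus strand). There is 1 difference here and 5 over the 885 aligned bases.
Tmx2: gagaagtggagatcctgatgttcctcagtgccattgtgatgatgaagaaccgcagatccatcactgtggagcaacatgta
Gm5499: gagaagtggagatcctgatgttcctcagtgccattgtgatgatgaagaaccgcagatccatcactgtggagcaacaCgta

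Ndufa12, a subunit of respiratory complex I, was read from chr10:94034962-94034992 and chr10:94035812-94035860 (plus strand), and its copy Ndufa12-ps from chr5:130217255-130217334 (plus strand). There is 1 difference here and 2 over 402 aligned bases.
Ndufa12: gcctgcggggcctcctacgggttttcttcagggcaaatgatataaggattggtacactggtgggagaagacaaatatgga
Ndufa12-ps: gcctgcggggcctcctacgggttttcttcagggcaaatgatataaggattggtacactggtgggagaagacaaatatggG

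Psma3, a subunit of the proteasome core, was read from chr12:71031309-71031368 and chr12:71031446-71031465 (plus strand). It has 2 called copies of unlike divergence, Gm13835 (chr6:31119332-31119411, minus strand), which has no difference in 685 aligned bases, and Gm4742 (chr14:52606797-52606876, minus strand), which has 6 differences in this window and 20 over 664 aligned bases.
Psma3: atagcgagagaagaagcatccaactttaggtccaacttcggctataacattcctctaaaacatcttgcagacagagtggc
Gm13835: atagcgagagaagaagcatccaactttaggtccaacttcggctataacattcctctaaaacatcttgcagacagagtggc
Gm4742: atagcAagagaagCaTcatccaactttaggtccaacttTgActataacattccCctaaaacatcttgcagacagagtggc

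Cox7a2l, a factor that binds respiratory complexes together, was read from chr17:83821633-83821692 and chr17:83811638-83811657 (minus strand), and its copy Gm6969 from chr12:24688918-24688997 (minus strand). No base differs here, and 2 of 336 aligned bases differ over the copy, beside 6 bases in gaps.
Cox7a2l: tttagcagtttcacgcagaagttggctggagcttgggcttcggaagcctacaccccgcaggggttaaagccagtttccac
Gm6969: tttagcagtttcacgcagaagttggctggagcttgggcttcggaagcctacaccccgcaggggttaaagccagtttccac

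Eef1a1, the elongation factor that brings aminoacyl-tRNA to the ribosome, was read from chr9:78386240-78386264 and chr9:78386086-78386140 (minus strand). Its 3 called copies are Gm6548 (chr17:79158288-79158367, minus strand), Eef1a1-ps1 (chr19:17905227-17905306, plus strand) and Gm13456 (chr2:40446979-40447058, plus strand), with 6, 4 and 2 differences in this window.
Eef1a1: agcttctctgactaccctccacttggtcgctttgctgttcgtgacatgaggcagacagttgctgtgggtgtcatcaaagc
Gm6548: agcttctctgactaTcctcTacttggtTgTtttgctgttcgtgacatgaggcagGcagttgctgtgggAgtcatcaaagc
Eef1a1-ps1: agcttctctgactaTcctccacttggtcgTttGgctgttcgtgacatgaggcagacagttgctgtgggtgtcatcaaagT
Gm13456: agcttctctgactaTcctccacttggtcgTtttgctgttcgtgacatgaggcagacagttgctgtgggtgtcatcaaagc

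The deep libraries, 15 in number, held 27660078 to 35238677 counts each. Cere Upf3b-KO library 1 was far shallower and was left out of every value unless it is named. Upf3b itself was at 14.8 ± 0.64 CPM (counts per 1000000 counts of the library, SD, n = 4) in FC Ctrl and 0.559 ± 0.26 (n = 4) in FC Upf3b-KO, and at 22.7 ± 1.2 (n = 4) and 0.737 ± 0.20 (n = 3) in cerebellum. Marker genes of other tissues and cells also differed with genotype. The summed level of 6 choroid plexus markers was 19.1 to 20.2 CPM in FC Ctrl and 2150 to 2200 in FC Upf3b-KO, and 22.2 to 25.5 and 1380 to 1400 in cerebellum. In frontal cortex, 6 striatal neuron markers summed to 136 to 145 CPM in Ctrl and 706 to 717 in Upf3b-KO, 8 spermatid markers to 22.4 to 26.6 and 170 to 183, and 3 red cell genes to 352 to 358 and 301 to 314. In cerebellum, the spermatid markers summed to 0.955 to 1.5 in Ctrl and 10.5 to 12.3 in Upf3b-KO, and the striatal markers to 365 to 378 and 314 to 324. There, the 6 cerebellar neuron markers summed to 5700 to 5790 in Ctrl and 2620 to 2650 in Upf3b-KO, and the red cell genes to 924 to 972 and 1720 to 1760. Called higher in Upf3b-KO were 6 of 6 choroid plexus markers in each region, 8 of 8 spermatid and 6 of 6 striatal markers in frontal cortex, and 5 of 5 tested spermatid and 2 of 6 striatal markers in cerebellum, where 3 of 6 cerebellar neuron markers were called lower. The 6 markers of frontal cortex excitatory neurons summed to 1620 to 1680 CPM in FC Ctrl and 1540 to 1560 in FC Upf3b-KO, with 0 called, and to 483 to 503 and 355 to 361 in cerebellum, with 1 of 5 tested called higher. None of these marker genes was at 0 in a whole group, and the part of such tissue in the results was not tested. In bulk tissue, fewer cells of a type and less RNA per cell cannot be told apart.

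Many processed pseudogenes gave no counts. Of the 10240 rows, 4869 (47.5%) were at 0 in all 15 deep libraries and 718 (7.01%) were above 0 in every one. A single library held counts for 2086 to 2433 rows. A mean of at least 1 CPM was reached by 199 rows, at least 10 CPM by 35, and at least 100 CPM by 1, Gm10123, which alone made 8.95% of the summed level. The top 50 rows made 59.0% of it.

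The summed level of all rows was higher in Upf3b-KO libraries. It was 1475 to 1575 CPM in FC Ctrl and 1799 to 1863 in FC Upf3b-KO, with means of 1533 ± 42 (SD, n = 4) and 1835 ± 33 (n = 4). In cerebellum it was 1436 to 1530 in Ctrl and 1879 to 1910 in Upf3b-KO, with means of 1481 ± 39 (n = 4) and 1900 ± 18 (n = 3). The groups did not overlap in either region, and the sum was 0.148% to 0.190% of all counts in the group means. By CPM, the median log2 difference of all genes tested was itself 0.08 in frontal cortex and 0.06 in cerebellum. Much of the difference in the summed level lay in a few rows. The 24 rows called higher in both regions summed to 19.4 ± 1.1 CPM in FC Ctrl and 252 ± 7.4 in FC Upf3b-KO, and to 19.4 ± 1.0 and 276 ± 8.8 in cerebellum. The other 10216 rows summed to 1514 ± 43 and 1583 ± 39 in frontal cortex, where the libraries of the groups overlapped, and to 1461 ± 40 and 1623 ± 9.4 in cerebellum, where they did not.

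**Figure D1:**
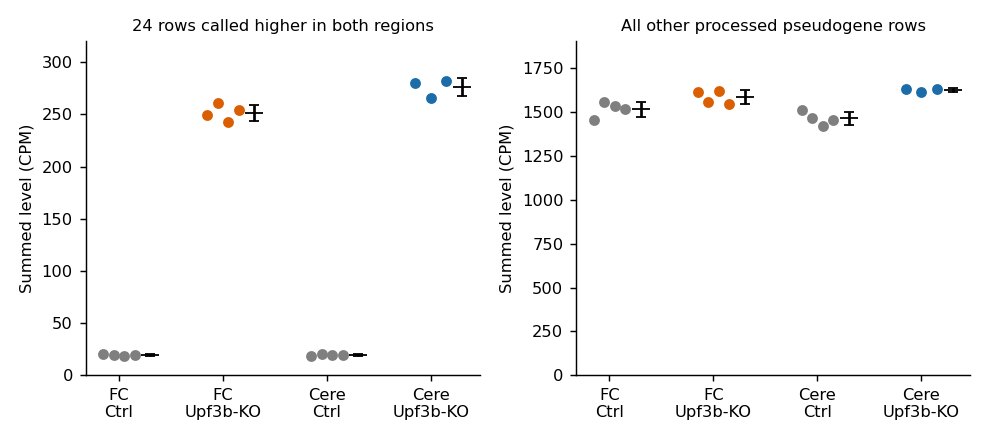
Summed level (CPM, linear axis from 0) of the 24 rows called higher in both regions (left) and of the 10216 other processed pseudogene rows (right). Each point is 1 library, the bar beside it the group mean ± SD (n = 4, and n = 3 for Cere Upf3b-KO); on the left the Upf3b-KO libraries lie at 243.3 to 281.9 CPM and the Ctrl libraries at 18.16 to 20.78.

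In frontal cortex, 540 rows passed the filter on low counts and were tested by the quasi-likelihood method of edgeR, with p-values adjusted after Benjamini and Hochberg over all 42318 transcripts tested. A row was called where its adjusted p was under 0.01 and the groups differed over 2-fold. In Upf3b-KO, 31 rows (5.74% of those tested) were called higher and 1 (0.185%) lower, while 2.76% of all tested transcripts were called higher and 0.463% lower. A row could pass the filter through counts in 1 group alone, as Gm6969 did, with 2.6 to 6.78 counts per FC Ctrl library. The share called therefore depends on the filter. Without it 27 of 4108 rows were called higher, and under a stricter one 23 of 149. The median log2 fold change of the 540 rows was -0.02, against 0.01 for all transcripts. In cerebellum, 576 rows were tested among 44388 transcripts. There 25 rows (4.34%) were called higher and 0 lower, beside 3.45% and 1.31% of all transcripts. In cerebellum 24 of 4596 rows were called higher without the filter, and 22 of 157 under the stricter one. The count of 81 rows at an unadjusted p under 0.05 in cerebellum includes both directions, and DESeq2 called 39 rows higher and 3 lower there, against 40 higher and 5 lower in frontal cortex. With rows summed per gene, 43 were higher and 10 lower in cerebellum, and 7 lower in frontal cortex. With the shallow library included, 15 were higher in cerebellum. The median of the 576 rows was 0.09, against 0.01 for all. The rows that were not tested, 9700 and 9664, did not reach the minimum count in enough libraries. Of these 1, Gm13841, had a group mean of at least 1 CPM in either region. In all 31 and all 25 rows called higher, every Upf3b-KO library lay above every Ctrl library, as in all 1166 and all 1533 transcripts called higher. The p-values measure the spread between these libraries only.

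Calls in the 2 regions were set side by side. Of the 31 rows called higher in frontal cortex 24 (77.4%) were also called higher in cerebellum, and these were 24 of the 25 (96.0%) called there. Over all transcripts, 265 were called higher in both regions, 22.7% of the 1166 called in frontal cortex and 17.3% of the 1533 called in cerebellum. The fits of the regions use no common library, though the study took both tissues from mice of the same set. Of the 7 others in frontal cortex, 4 had too few counts for a test in cerebellum and 3 were tested and not called. The log2 fold changes of called rows lay between 2.31 and 6.12 in frontal cortex and between 1.19 and 6.93 in cerebellum, leaving out 2 and 3 rows with at most 3 counts over the Ctrl libraries. In Ctrl, 24 of the 31 and 18 of the 25 were under 1 CPM, and in Upf3b-KO they reached means of 0.646 to 44.6 and 0.730 to 50.4 CPM.

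**Figure D2:**
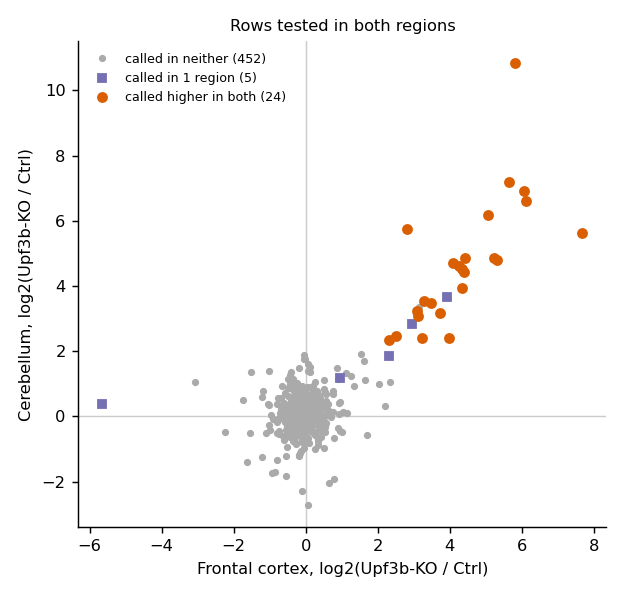
Log2 fold change, Upf3b-KO against Ctrl, in frontal cortex (x axis) and cerebellum (y axis) for the 481 processed pseudogene rows tested in both. Orange points were called higher in both regions (24 rows), purple squares in 1 region (3000002C10Rik, at the left, lower in frontal cortex) and grey points in neither; most called rows lie apart from the cloud of grey points, which is centred near 0.

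Copies of ribosomal protein genes were the most numerous class. By parent symbol there were 2256 of them, of which 1237 were detected in a deep library. Of 93 tested in frontal cortex, 2 were called higher and 0 lower, and of 87 tested in cerebellum again 2 and 0, with medians of -0.12 and 0.12, where 2.76% and 3.45% of all tested transcripts were called higher. The 2 called rows were Rpl3-ps1 and Gm8210.

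Rpl3-ps1 (chrX:13068810-13070019, plus strand) lies alone, outside the exons and introns of protein-coding and lncRNA genes, and is 99.8% identical to Rpl3. In frontal cortex it was at 4.07, 3.98, 3.67 and 3.62 CPM in the Ctrl libraries and at 45.2, 44.8, 41.9 and 46.4 in Upf3b-KO. Its libraries in cerebellum were at 3.09, 2.74, 3.6 and 3.26 in Ctrl and at 34.5, 32.1 and 39.8 in Upf3b-KO. All 7 Upf3b-KO libraries were thus far above all 8 Ctrl libraries. The log2 fold change was 3.47 ± 0.061 (SE, adjusted p = 3.35e-08) in frontal cortex and 3.48 ± 0.12 (adjusted p = 2.62e-06) in cerebellum, and the interaction of region and genotype was 0.01 (adjusted p = 0.997). Summed over its rows, Rpl3 was at 249 ± 5.5 CPM in FC Ctrl and 161 ± 5.7 in FC Upf3b-KO, so that copy and parent together differed by -0.30 on the log2 scale. In cerebellum Rpl3 was at 155 ± 4.2 and 126 ± 1.3, and the sum differed by 0.03. Per kilobase, the level of Rpl3-ps1 was 1.72% of that of Rpl3 in FC Ctrl and 30.9% in FC Upf3b-KO.

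Gm8210 (chr1:43228316-43228798, plus strand), 99.4% identical to Rpl29 and opposite to Fhl2, varied more. Its Ctrl libraries in frontal cortex were at 0.131, 0.120, 0 and 0.270 CPM and its Upf3b-KO libraries at 5.72, 11.5, 2.72 and 11.5. All 4 Ctrl libraries of the cerebellum were at 0 and the Upf3b-KO libraries at 10.5, 7.64 and 3.27. The Upf3b-KO libraries spread widely, at 7.85 ± 4.4 and 7.13 ± 3.6 CPM, but none reached down to Ctrl. It was called in both regions (adjusted p = 0.00268 and 0.00256), though not without FC Ctrl 1 or 2 or FC Upf3b-KO 2 or 4 (log2 fold changes of 5.58 to 5.79), nor without Cere Upf3b-KO 2 or 3 (10.47 and 10.76, against 10.83 with all libraries, fitted values that depend on the prior count since Ctrl was at 0). In cerebellum its level was at least 293-fold higher, taking 3 counts over the 4 Ctrl libraries as the floor. Rpl29 was at 41.6 ± 0.87 CPM in FC Ctrl and 21.8 ± 1.5 in FC Upf3b-KO, and at 28.3 ± 0.88 and 16.1 ± 0.17 in cerebellum. Of the 133 copies of Rpl29, Gm8210 was the only one that passed the filter in either region. Gm13841, another copy with 99.4% identity, did not pass it because it was at 0 in some Upf3b-KO libraries. It was at 0.128, 0.126, 0.0371 and 0.248 CPM in FC Ctrl and at 8.73, 0, 9.23 and 0 in FC Upf3b-KO, and in cerebellum at 0.0891, 0.141, 0.117 and 0.148 in Ctrl and at 0, 1.88 and 5.1 in Upf3b-KO. The Upf3b-KO libraries in which it was at 0 were those in which Gm8210 was highest in that region. For both copies every 50-base window (100%) occurs in transcripts of other genes.

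Copies of translation factor genes numbered 184, with 20 tested in frontal cortex and 21 in cerebellum. In each region 3 were called higher and 0 lower, beside 2.76% and 3.45% of all tested transcripts called higher, and all 3 were copies of Eef1a1. Eef1a1-ps1 (97.3% identical) was at 0.570, 0.630, 0.511 and 0.592 CPM in FC Ctrl and at 5.93, 6.12, 6.72 and 5.05 in FC Upf3b-KO. Its means in cerebellum were 0.365 ± 0.12 and 4.19 ± 0.76. Gm6548 (96.7%) rose in frontal cortex from 0.549 ± 0.040 to 5.10 ± 0.59 and in cerebellum from 0.453 ± 0.074 to 3.88 ± 0.31. Gm13456 (98.6%) was already above 1 CPM in FC Ctrl, at 1.63 ± 0.24, and rose to 8.48 ± 0.53, and in cerebellum from 0.946 ± 0.33 to 4.79 ± 0.14. The log2 fold changes of the 3 copies were 3.29, 3.13 and 2.31 in frontal cortex and 3.53, 3.08 and 2.35 in cerebellum (adjusted p from 1.05e-05 to 0.00143). They lie on chromosomes 19, 17 and 2. Eef1a1 was at 717 ± 4.8 CPM in FC Ctrl and 617 ± 9.5 in FC Upf3b-KO, and each copy held at most 1.35% of its sum with the parent.

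**Figure D3:**
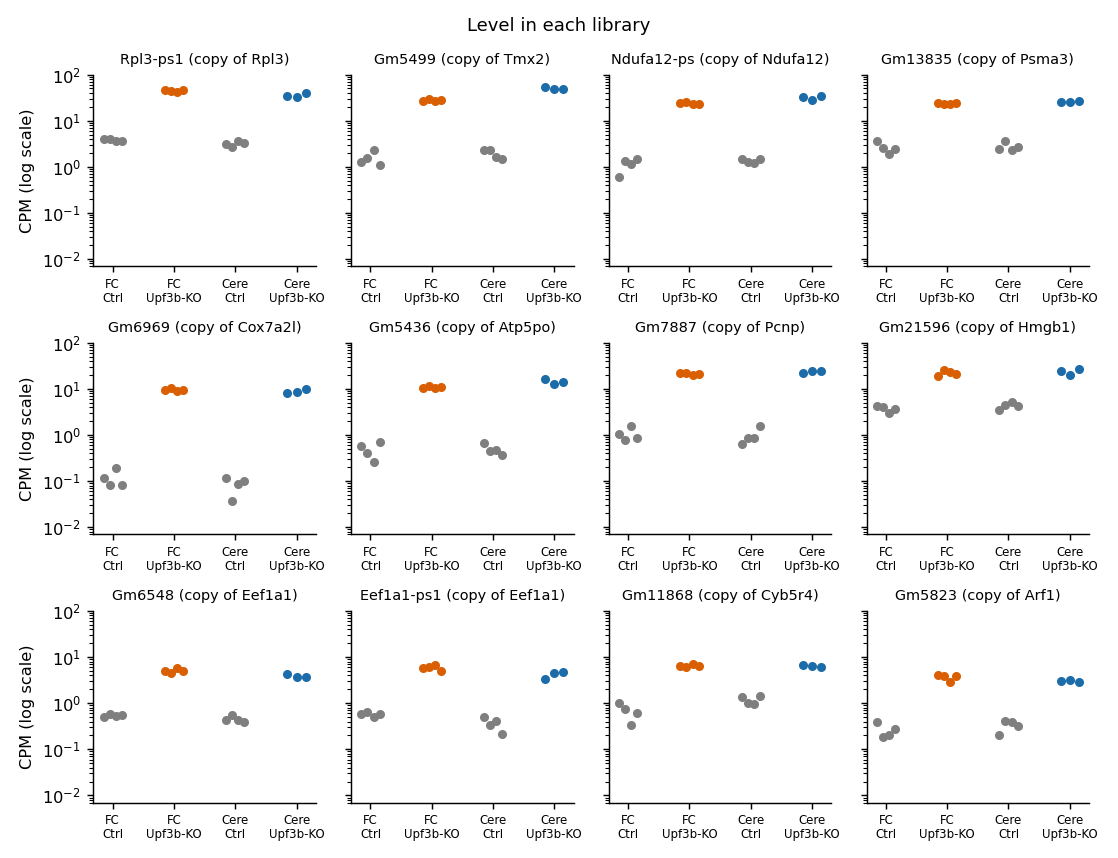
Level in each library (CPM, log axis) of the 12 rows called higher in both regions with the smallest adjusted p-values, with the parent gene in brackets. Each point is 1 library of FC Ctrl and Cere Ctrl (grey), FC Upf3b-KO (orange) or Cere Upf3b-KO (blue); in all 12 panels no Upf3b-KO point reaches down to a Ctrl point of its region.

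Copies of oxidative phosphorylation genes numbered 245. Of 26 tested in each region 3 were called higher and 0 lower in each, namely Ndufa12-ps, Gm6969 and Gm5436, where 2.76% and 3.45% of all transcripts were called higher. Their class summed to 107 ± 3.9 CPM in FC Ctrl and 138 ± 4.0 in FC Upf3b-KO, and to 105 ± 7.1 and 164 ± 5.7 in cerebellum.

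Ndufa12-ps (chr5:130217236-130217637, plus strand) lies within an intron of Rabgef1 on the same strand. It was at 0.600, 1.31, 1.16 and 1.5 CPM in FC Ctrl and at 24.2, 25.4, 23.3 and 23.1 in FC Upf3b-KO. In cerebellum it was at 1.47, 1.26, 1.21 and 1.45 in Ctrl and at 32.4, 28 and 33.9 in Upf3b-KO. Its log2 fold changes were 4.33 ± 0.25 (adjusted p = 1.55e-05) and 4.53 ± 0.12 (adjusted p = 6.92e-07). The host gene Rabgef1 had log2 fold changes of -0.21 and -0.13. The parent Ndufa12 was at 120 ± 3.7 CPM in FC Ctrl and 81.5 ± 3.4 in FC Upf3b-KO, and at 116 ± 3.4 and 96.9 ± 2.6 in cerebellum. Copy and parent together differed by -0.20 and 0.13 on the log2 scale. Per kilobase the copy stood at 2.96% of its parent in FC Ctrl, 91.8% in FC Upf3b-KO and 101% in Cere Upf3b-KO.

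Gm6969 (chr12:24688668-24689009, minus strand) is the copy of Cox7a2l. All of its 50-base windows (100%) occur in other genes' transcripts, so its level depends on how RSEM divides shared reads. In Ctrl it was at 0.115, 0.0821, 0.197 and 0.0807 CPM in frontal cortex and 0.117, 0.0379, 0.0872 and 0.0991 in cerebellum. Upf3b-KO libraries were at 9.44, 10.3, 9.03 and 9.26 in frontal cortex and at 8.28, 8.76 and 9.74 in cerebellum. The log2 fold changes were 6.12 ± 0.28 (adjusted p = 3.99e-06) and 6.61 ± 0.39 (adjusted p = 2.88e-05). Cox7a2l was at 80.2 ± 1.9 and 59.6 ± 2.1 CPM in frontal cortex but at 62.9 ± 0.16 and 60.3 ± 1.6 in cerebellum. Gm5436, 97% identical to Atp5po, a subunit of ATP synthase, rose in frontal cortex from 0.479 ± 0.19 to 10.8 ± 0.57 CPM and in cerebellum from 0.488 ± 0.13 to 14.2 ± 1.7. Only 25.4% of its 50-base windows occur in another gene's transcripts. Outside the class, Gm18736, a copy of the mitochondrial ribosomal protein gene Mrps10 within an intron of Tmem232, rose from 0.104 ± 0.068 to 7.15 ± 0.53 CPM and from 0.0709 ± 0.070 to 9.08 ± 0.60. Tmem232 itself had log2 fold changes of 0.67 (adjusted p = 0.00017) and 0.90 (adjusted p = 0.0411).

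Of 175 copies of proteasome and ubiquitin genes, 21 were tested in frontal cortex and 25 in cerebellum, and 2 were called higher and 0 lower in each, against a background of 2.76% and 3.45% of transcripts called higher. Both are copies of Psma3. Gm13835 (chr6:31118914-31119598, minus strand, within an intron of Lncpint) was at 3.69, 2.5, 1.88 and 2.40 CPM in FC Ctrl and at 24.4, 22.5, 23.1 and 23.7 in FC Upf3b-KO. Its libraries in cerebellum were at 2.41, 3.66, 2.26 and 2.71 in Ctrl and at 25.3, 24.9 and 26.8 in Upf3b-KO. All of its 50-base windows occur in Psma3 (100%). Its log2 fold changes were 3.10 ± 0.20 (adjusted p = 2.57e-05) and 3.22 ± 0.18 (adjusted p = 2.2e-05). Psma3 was at 140 ± 4.2 CPM in FC Ctrl and 121 ± 2.4 in FC Upf3b-KO, a difference of -19.1 CPM beside a gain of 20.8 in the copy. In cerebellum Psma3 differed by -5.59 CPM and the copy by 22.9. Gm4742, the more diverged copy, shares 10.7% of its windows with other genes and rose in frontal cortex from 0.0672 ± 0.052 to 1.55 ± 0.41 CPM and in cerebellum from 0.0766 ± 0.034 to 1.75 ± 0.36 (adjusted p = 0.0036 and 0.000423). The call in frontal cortex was lost without FC Ctrl 2 or 3 or any FC Upf3b-KO library, with log2 fold changes of 4.19 to 4.55.

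Copies of HMG and histone genes numbered 359, of which 152 were copies of Hmgb1, a chromatin protein that bends DNA. In frontal cortex 13 of the class were tested and 2 called higher, Gm21596 and Gm46432, and in cerebellum 16 were tested and 1 called higher, Gm21596, with 0 lower in either. The shares of all transcripts called higher were 2.76% and 3.45%. Gm21596 (chr2:113750171-113751486, minus strand, 99.5% identical) was at 4.20, 4.07, 2.96 and 3.67 CPM in FC Ctrl and at 19.2, 25.2, 23.1 and 21.5 in FC Upf3b-KO. In cerebellum it was at 3.47, 4.44, 5.15 and 4.20 in Ctrl and at 24.5, 20.2 and 27 in Upf3b-KO. The log2 fold changes were 2.52 ± 0.14 (adjusted p = 1.19e-05) and 2.47 ± 0.16 (adjusted p = 5.52e-05). Another copy, Gm15387 (99.8%), stayed under the 2-fold limit. It was at 36.6 ± 3.1 and 73.5 ± 4.3 CPM in frontal cortex (log2 fold change 0.94, adjusted p = 5.13e-05) and at 49.3 ± 3.6 and 67.0 ± 3.1 in cerebellum (0.44, adjusted p = 0.00275). Hmgb1 was at 409 ± 5.6 CPM in FC Ctrl and 292 ± 1.0 in FC Upf3b-KO, and at 507 ± 13 and 274 ± 6.0 in cerebellum. All 152 copies together were at 47.8 and 103 CPM in frontal cortex and at 61.7 and 97.8 in cerebellum.

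Among called rows whose parents fall in none of these classes, Gm5499 had the highest level. This copy of Tmx2 (chr17:87385699-87386583, plus strand) was at 1.28, 1.58, 2.32 and 1.07 CPM in FC Ctrl and at 27.2, 29.4, 27 and 27.7 in FC Upf3b-KO. Its libraries in cerebellum were at 2.30, 2.30, 1.63 and 1.51 in Ctrl and at 53.2, 49.6 and 48.6 in Upf3b-KO. The Upf3b-KO values in cerebellum were all above those in frontal cortex, but the interaction was not called (0.61, adjusted p = 0.217). The log2 fold changes were 4.09 ± 0.23 (adjusted p = 1.35e-05) and 4.70 ± 0.17 (adjusted p = 2.56e-06). Tmx2 was at 357 ± 7.4 and 275 ± 4.4 CPM in frontal cortex, whereas in cerebellum it was at 483 ± 2.5 and 487 ± 9.4, a difference of 4.43 CPM beside 48.5 in the copy.

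Gm7887 (chr6:48501488-48502024, minus strand), 99.6% identical to Pcnp, is annotated as transcribed and lies opposite to Zfp862-ps. All of its 50-base windows (100%) occur in other genes' transcripts. It was at 1.05, 0.769, 1.59 and 0.857 CPM in FC Ctrl and at 22.2, 22.1, 20.5 and 20.8 in FC Upf3b-KO. In cerebellum it was at 0.622, 0.853, 0.853 and 1.60 in Ctrl and at 22.4, 24.4 and 24.8 in Upf3b-KO. Here the parent was higher too, with Pcnp at 266 ± 4.1 and 334 ± 3.2 CPM in frontal cortex and 261 ± 9.4 and 376 ± 6.1 in cerebellum. The log2 fold changes of the copy were 4.25 ± 0.23 (adjusted p = 1.07e-05) and 4.6 ± 0.30 (adjusted p = 5.19e-05).

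Copies whose symbol names the parent and ends in -ps, with or without a number after it, numbered 688. Of these, 114 were tested in frontal cortex, with 7 called higher and 0 lower, and 123 in cerebellum, with 6 and 0, beside 2.76% and 3.45% of all transcripts called higher. Beside Rpl3-ps1, Ndufa12-ps and Eef1a1-ps1 they were Rbpj-ps3, Oaz2-ps and Tma7-ps in both regions and Ppp1r2-ps3 in frontal cortex. Rbpj-ps3, a copy of the transcription factor of the Notch pathway, was at 0.161 ± 0.15 and 6.48 ± 0.34 CPM in frontal cortex and at 0.258 ± 0.23 and 7.27 ± 0.17 in cerebellum. Its calls were near the threshold (adjusted p = 0.00287 and 0.00888) and were lost when any of several libraries was left out, FC Ctrl 2 or 4, any FC Upf3b-KO library, Cere Ctrl 2, 3 or 4, or any deep Cere Upf3b-KO library, with log2 fold changes of 5.06 to 5.53 and 4.66 to 5.49 in these fits. Rbpj itself was at 32.6 ± 2.0 and 19.3 ± 0.82 CPM in frontal cortex and at 51.5 ± 1.6 and 25.8 ± 0.86 in cerebellum. Oaz2-ps, a copy of an ornithine decarboxylase antizyme gene, was at 0.205 ± 0.13 and 4.45 ± 0.54 CPM and at 0.281 ± 0.18 and 4.33 ± 0.49. Tma7-ps was at 0.0474 ± 0.041 and 2.59 ± 0.44 CPM in frontal cortex, and in cerebellum it had 1 count over the 4 Ctrl libraries and 167 over the 3 Upf3b-KO libraries, a ratio of 216 (exact 95% counting interval 38.2 to 8570). Ppp1r2-ps3 rose from 0.143 ± 0.071 to 1.22 ± 0.40 CPM in frontal cortex (adjusted p = 0.00285), a call that was lost without FC Ctrl 1, 2 or 3 or FC Upf3b-KO 2, 3 or 4, with log2 fold changes of 2.83 to 3.10.

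Further rows were called higher in both regions. Gm11868, a copy of Cyb5r4 within an intron of Cnbd1, rose in frontal cortex from 0.667 ± 0.28 to 6.45 ± 0.40 CPM and in cerebellum from 1.20 ± 0.23 to 6.49 ± 0.37. Gm5823, a copy of Arf1, rose from 0.264 ± 0.094 to 3.74 ± 0.54 and from 0.331 ± 0.093 to 3.04 ± 0.11. Rangrf has 2 called copies. Gm10355 had 1 count over the FC Ctrl libraries and 309 over FC Upf3b-KO, a ratio of 324 (57.7 to 12800), and rose from 0.05 ± 0.060 to 2.27 ± 0.83 CPM in cerebellum. In frontal cortex Gm4535 rose from 0.0298 ± 0.026 to 1.19 ± 0.19 CPM, and it had 2 and 143 counts in cerebellum, a ratio of 92.4 (25.1 to 770). Both calls in cerebellum depended on which libraries were used, Gm10355 losing it without Cere Ctrl 1, 2 or 3 or any deep Cere Upf3b-KO library (5.23 to 5.94) and Gm4535 without Cere Ctrl 1, 2 or 4 or any of these (log2 fold changes of 5.79 to 6.37). Gm6685, a copy of Cyb5d1, and Gm18860, a copy of Cnot8, reached 1.32 ± 0.34 and 2.72 ± 0.30 CPM in FC Upf3b-KO from 0.0305 ± 0.040 and 0.375 ± 0.10 in FC Ctrl. Gm6685 lost its call in frontal cortex without FC Ctrl 1, 2 or 3 or any FC Upf3b-KO library, with log2 fold changes of 4.85 to 5.39.

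Gm19963 (chr7:119342079-119343333, minus strand) stands apart in sequence, with 88.8% identity to its best match, Lacc1, in which 1.49% of its windows occur. Of its windows 45.4% occur in some other gene's transcripts. Gm19963 lies opposite to a protein-coding or lncRNA gene entry named Ppp1ccb, and does not overlap the pseudogene row of the same symbol. Its counts were whole numbers, within 0.005, in all 15 deep libraries. It was at 0.0901, 0, 0.0290 and 0.0310 CPM in FC Ctrl and at 0.685, 0.751, 0.659 and 0.617 in FC Upf3b-KO. Its libraries in cerebellum were at 0.174, 0.118, 0.0991 and 0.145 in Ctrl and at 0.663, 0.851 and 0.676 in Upf3b-KO. Groups did not overlap, and the log2 fold changes were 3.98 ± 0.68 (adjusted p = 0.00508) and 2.41 ± 0.40 (adjusted p = 0.00473). The calls were lost without FC Ctrl 3 or 4 or any FC Upf3b-KO library (3.88 to 4.02), and without Cere Ctrl 2, 3 or 4 or any deep Cere Upf3b-KO library (2.29 to 2.48). Gm11780, the other row called by genotype with whole counts throughout, was at 0.0454 ± 0.018 and 0.929 ± 0.16 CPM in frontal cortex (adjusted p = 0.000259). All of its windows (100%) occur in other genes' transcripts, though none (0%) in its best match, Ptp4a2. In cerebellum it had 0 counts in Ctrl and 11 in Upf3b-KO and was not tested.

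Other rows were called in 1 region. Gm7444 was at 0.656 ± 0.28 and 7.52 ± 0.28 CPM in frontal cortex (adjusted p = 0.000354), while in cerebellum it had 2 counts in Ctrl and 39 in Upf3b-KO, a ratio of 25.2 (exact 95% counting interval 6.52 to 215), and was not tested. Its best match, 1700001J11Rik, was itself at 0.0705 ± 0.14 and 0.981 ± 0.11 CPM in frontal cortex, and it is the parent with the largest log2 difference, 3.80. Gm48496 had 0 counts in FC Ctrl after rounding and 81 in FC Upf3b-KO, at least 28.3-fold higher in level, a call that was lost without any 1 FC Upf3b-KO library. Gm4353, Gm7049 and Gm46432 were called in frontal cortex and missed the threshold in cerebellum, where their log2 fold changes were 2.85, 3.66 and 1.86 (adjusted p = 0.0777, 0.0317 and 0.0697). Without Cere Ctrl 4 or Cere Ctrl 3, respectively, Gm4353 and Gm7049 were called there too (2.44 and 3.25), while Gm46432 lost its call in frontal cortex whichever library was left out (2.05 to 2.47). Gm10557 was called in cerebellum, with 6.39 ± 0.82 and 14.6 ± 0.56 CPM (log2 fold change 1.19), and in frontal cortex its log2 fold change of 0.96 was below the 2-fold limit, though not without FC Ctrl 3 (1.04). None of these was called in the interaction.

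The only row called lower was 3000002C10Rik, in frontal cortex. It matches Gapdh at 94.5% identity and lies over an exon of the lncRNA Gm65993 on the same strand. It was at 0.391, 0.448, 0.992 and 0.450 CPM in FC Ctrl and at 0, 0, 0.0376 and 0 in FC Upf3b-KO, and at 0.238 ± 0.16 and 0.305 ± 0.27 in cerebellum. The 4 FC Upf3b-KO libraries held 1 count together and the FC Ctrl libraries 77, a ratio of 73.5 (exact 95% counting interval 12.8 to 2940). The call (adjusted p = 0.00313) was lost whichever of the 8 libraries was left out, with fitted log2 fold changes of -7.25 to -5.24, against -5.65 with all, which depend on the prior count.

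In the other classes edgeR called no row higher, where 2.76% and 3.45% of all tested transcripts were called higher and 0.463% and 1.31% lower, so that few or no calls among the 16 to 50 tested rows of a class lie near the background. Copies of glycolysis genes, 484 in number, had 46 tested rows in frontal cortex and 50 in cerebellum, with medians of -0.13 and 0.19, and 3000002C10Rik was the only call by edgeR, with 6 and 3 rows at an unadjusted p under 0.05. DESeq2 called 1 glycolysis copy higher in each region and 1 lower in frontal cortex. Of the 234 copies of Gapdh alone, 39 were tested in at least 1 region, and together they were at 52.9 CPM in FC Ctrl and 50.1 in FC Upf3b-KO. Copies of chaperone and protein folding genes had 33 tested rows in each region and 0 calls by edgeR, with 0 and 4 rows at an unadjusted p under 0.05 and 0 and 1 calls by DESeq2. Copies of RNA-binding and nuclear protein genes had 22 and 27 tested rows and 0 calls, with 1 and 2 rows at an unadjusted p under 0.05 and 0 and 1 calls by DESeq2. Copies of cytoskeleton genes had 17 and 16 tested rows and 0 calls, with 2 and 4 rows at an unadjusted p under 0.05 and 1 and 0 calls by DESeq2. Some abundant copies of these classes had an adjusted p under 0.01 in cerebellum with less than a 2-fold difference, as Gm10123 (log2 fold change 0.32, adjusted p = 0.00031) and Gm7964 (-0.35, adjusted p = 0.00187).

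The 8 most abundant rows were 99.2% to 100% identical to their parents and none was called by genotype. Gm10123, identical to Ppia, the abundant prolyl isomerase cyclophilin A, was at 155 ± 1.5 and 159 ± 3.5 CPM in frontal cortex and at 128 ± 3.8 and 160 ± 3.3 in cerebellum. Its share of the sum with Ppia was 11.7% in FC Ctrl and 12.0% in FC Upf3b-KO. Morf4l1-ps1 was at 70.3 ± 5.4, 68.9 ± 3.9, 64.6 ± 5.5 and 74.3 ± 0.44 CPM in FC Ctrl, FC Upf3b-KO, Cere Ctrl and Cere Upf3b-KO. Ndufb4c, identical to Ndufb4, was at 64.2 ± 0.53 and 52.8 ± 2.6 CPM in frontal cortex (log2 fold change -0.35, adjusted p = 0.00041) and at 60.2 and 59.1 in cerebellum. Per kilobase it was above its parent in all groups, at 224% to 230% of Ndufb4. Ap2m1-ps, Oaz1-ps, Gm7964 and Gm7336, copies of Ap2m1, Oaz1, Hnrnpk and Gapdh, had means of 25.9 to 45.4 CPM over the 4 groups, and the remaining row was Gm15387, a copy of Hmgb1. The share that a copy held of its sum with the parent in frontal cortex was 8.22% in Ctrl and 20.1% in Upf3b-KO for Gm15387, but 7.36% and 7.71% for Oaz1-ps and 59.4% and 59.7% for Ndufb4c.

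The parent genes of the called rows were set beside their copies. In frontal cortex the parent's mean was lower in Upf3b-KO for 19 of the 31 rows and higher for 11, and its median log2 ratio of means was -0.13. This tally depends on the scaling, since with TMM the parent was lower for 23 and higher for 8, with a median of -0.20, and of all 18218 genes in that fit 49.4% were lower with TMM and 37.7% by CPM. For 17 of the 31 the parent was lower by at least as many CPM as the copy was higher. The median share of the copy in the sum of copy and parent was 0.277% in FC Ctrl and 7.08% in FC Upf3b-KO. The sum itself differed by less than 0.5 on the log2 scale for 27 of the 31, with a median of -0.02. With so small a share in the copy, the sum mostly follows the parent. Such a count, here or in cerebellum, therefore cannot show whether gain and loss balanced. In cerebellum the parent was lower for 17 of the 25 rows and higher for 8 by CPM, and lower for 19 and higher for 6 with TMM, where 44.6% and 49.3% of all genes were lower. By CPM, for 11 it was lower by at least the copy's gain, and the sum differed by less than 0.5 for 19, with a median of 0.03. The parents are not independent of each other, with 26 distinct genes behind the 31 rows and 21 behind the 25. At the gene level 2 parents were themselves called lower, and 1700001J11Rik was called higher in frontal cortex (3.70, adjusted p = 4.55e-05). The lower ones were Rpl29 in frontal cortex (log2 fold change -1.01, adjusted p = 9.93e-14) and Rbpj in cerebellum (-1.05, adjusted p = 7.98e-14). How many reads passed between copy and parent in the division by RSEM was not tested.

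**Figure D4:**
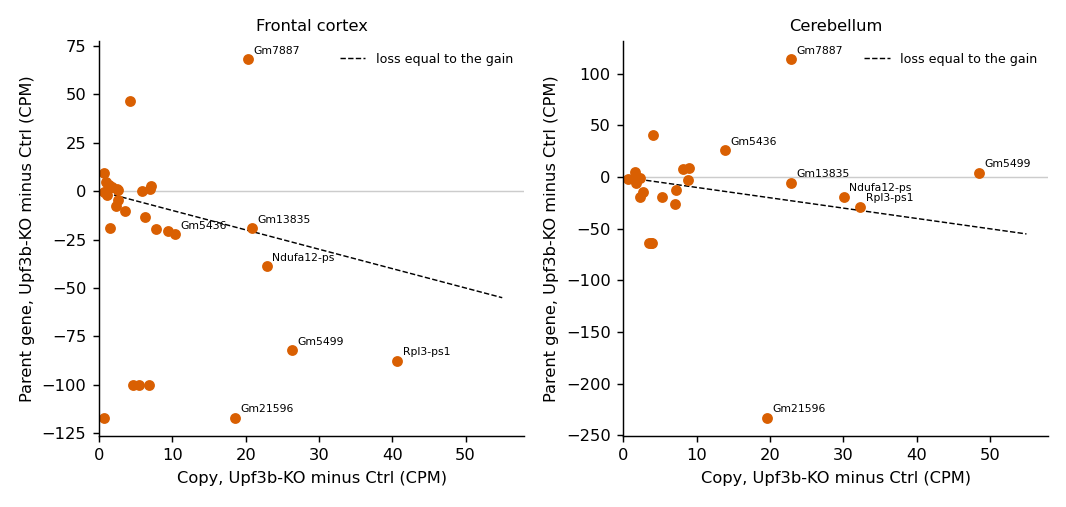
Difference in mean CPM between Upf3b-KO and Ctrl of each called copy (x axis) and of its parent gene summed over rows (y axis), in frontal cortex (left) and cerebellum (right). Each point is 1 row called higher, and on the dashed line the parent would lose what the copy gains; Rpl3-ps1 lies at 40.7 and -87.5 CPM in frontal cortex and at 32.3 and -28.8 in cerebellum, and Gm7887 lies far above the line in both.

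Called and other tested rows were compared for likeness to their parents. A parent was found for 8862 of the 10240 rows (86.5%), with a median identity of 90.3% over the aligned part. Rows that passed the filter were closer copies, with a median of 98.9% among the 635 tested in either region. The 32 rows called higher in either region had a median identity of 98.5% and the 602 tested and not called 98.9%. Of the called rows 24 (75.0%) were at least 97% identical, and of the others 437 (72.6%), while 12 (37.5%) and 276 (45.8%) were at least 99% identical. The part of a row's 50-base windows that occur in a transcript of another gene had a median of 68.4% for called rows and 81.3% for the others, or 42.7% and 63.6% with 100-base windows. By this measure, in frontal cortex 12 of 136 rows that share under 50% were called higher (8.82%), 14 of 259 that share 50% to under 100% (5.41%) and 5 of 145 that are shared throughout (3.45%). In cerebellum the shares were 6.94%, 3.93% and 2.63%. Of all tested transcripts 2.76% and 3.45% were called higher. These shares describe the rows and were not tested, since rows with one parent are not independent.

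**Figure D5:**
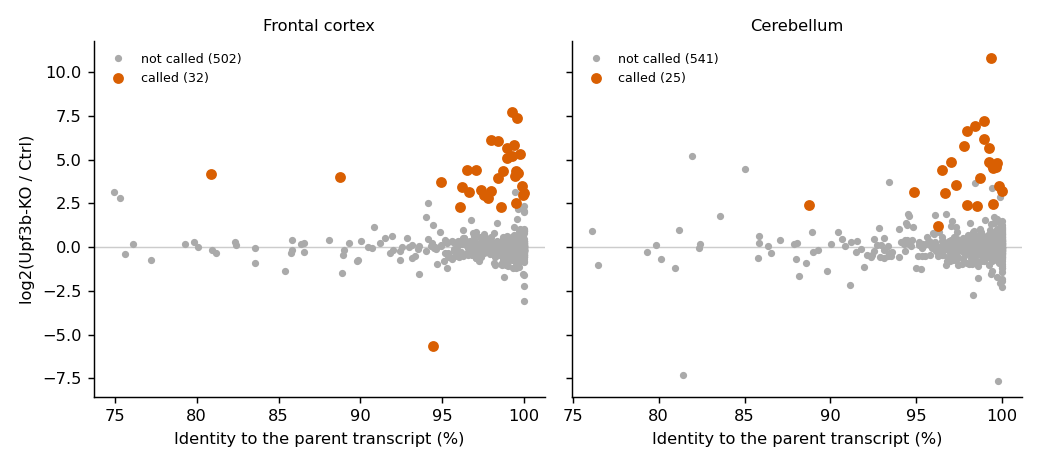
Log2 fold change, Upf3b-KO against Ctrl (y axis), against identity to the parent transcript in percent (x axis) for tested rows with a parent, in frontal cortex (left) and cerebellum (right). Orange points were called and grey points not; the rows called higher span 80.9% to 100% identity, and grey points crowd the same upper end of the axis.

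By position, the called rows were scattered. The 33 rows called in either region and direction lie on 17 chromosomes, with 1 on the X chromosome, which carries Upf3b and 929 of the 10240 rows. Of the 32 called higher, 30 (93.8%) have a single exon, 6 (18.8%) lie within an intron of a protein-coding or lncRNA gene on the same strand and 10 (31.2%) lie opposite to a gene. Among the 602 rows tested and not called the shares were 95.7%, 12.0% and 21.6%, and 54 rows (8.97%) overlapped an exon of such a gene on the same strand, which none of the 32 did. The strand setting of the counting is not given in the sources used here, so a row opposite to an expressed gene is uncertain. Only 3 of the 32 (9.38%) carry the annotation as transcribed, against 22.6% of the rows not called. The alignment of a called row crossed a median of 4 exon junctions of its parent, as did that of a row not called.

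The regions were also compared in Ctrl. Of 515 rows tested by edgeR, 5 were called higher (0.971%) and 6 lower (1.17%) in cerebellum, beside 5.99% and 8.95% of all 41629 transcripts, and the median log2 difference was -0.21 against 0 for all. DESeq2 called 7 higher and 23 lower, and with rows summed per gene 14 were higher and 22 lower. Ppp1ccb, identical to the phosphatase gene Ppp1cc, was at 5.86 ± 1.0 CPM in FC Ctrl and 25.4 ± 3.9 in Cere Ctrl (log2 difference 2 ± 0.16, adjusted p = 2.24e-05), and its parent at 161 and 407. Cere Ctrl 2, at 31.2 CPM, stood above the other 3 libraries at 22.9 to 24.2. Gm7818, which best matches the zinc finger gene Zfp994 and is annotated as transcribed, was at 7.75 ± 0.95 and 19.1 ± 1.7 (1.18, adjusted p = 7.48e-05). Gm5454, a copy of the transcription factor gene Etv1, was at 1.39 ± 0.35 and 3.61 ± 0.34 beside 153 and 444 for Etv1, and Gm18588, a copy of Osbpl9, at 1.17 ± 0.29 and 3.20 ± 0.63 beside 49.1 and 106. Gm18256 had counts in cerebellum alone, with all 8 frontal cortex libraries at 0 and the Cere Ctrl libraries at 0.723, 0.470, 0.792 and 0.434 CPM, and none of its windows (0%) occur in another gene. It lies opposite to Myh14. Rpl31-ps8, identical to Rpl31, was lower, at 15.7 and 8.42 CPM (log2 difference -1.01, adjusted p = 0.00201), with its parent at 50.5 and 26.9. The other rows called lower were Gm11223 (-1.45), Gm19026 (-1.66), Bambi-ps1 (-1.32), Gm7832 (-1.61) and Gm48035 (-2.94), all at 3.04 CPM or less. Of the 11 calls, 3 were lost in no single-library omission, those of Ppp1ccb, Gm7818 and Gm18256. The rows with the smallest p-values among lower ones, Gm10123, Ap2m1-ps, Gm7536, Gm4204 and Ndufb4c, had log2 differences of -0.40, -0.56, -0.71, -0.92 and -0.21, under the 2-fold limit, as had Mpc1-ps (0.37) among higher ones.

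The interaction of region and genotype asks whether the effect of genotype differed between the regions. It was tested for 740 rows over all 15 deep libraries, with 2 called higher in cerebellum than in frontal cortex (0.270%, beside 2.22% of all transcripts) and 0 lower (beside 0.757%), 55 rows having an unadjusted p under 0.05 and DESeq2 calling 11 higher and 0 lower. With rows summed per gene, 10 were higher and 2 lower. Gm18860 was at 0.280, 0.348, 0.521 and 0.350 CPM in FC Ctrl and 0.0605, 0.0617, 0 and 0.0372 in Cere Ctrl, but at 2.72 ± 0.30 and 2.32 ± 0.12 in the Upf3b-KO groups. The interaction of 2.94 ± 0.63 on the log2 scale (adjusted p = 0.00532) went with Ctrl groups that did not overlap and Upf3b-KO groups that did. Gm19026, a copy of Camsap1, was at 1.37, 1.39, 0.472 and 1.71 CPM in FC Ctrl, FC Upf3b-KO, Cere Ctrl and Cere Upf3b-KO (interaction 1.92 ± 0.43, adjusted p = 0.00756). Of the 33 rows called in a genotype comparison, all were tested for the interaction and only Gm18860 was called. The call of Gm18860 was lost without FC Ctrl 3, Cere Ctrl 4 or any deep Upf3b-KO library (2.73 to 2.99), and that of Gm19026 without FC Ctrl 1, 3 or 4, Cere Ctrl 2 or 4 or any deep Upf3b-KO library (1.75 to 2.01). The smallest adjusted p-values among higher rows were those of Gm10123 (0.35), Ndufb4c (0.32) and Ap2m1-ps (0.37), and among lower rows that of Gm15387 (-0.50, adjusted p = 0.00341), all under the 2-fold limit, while Gm7099 (-1.47, adjusted p = 0.0712) and Gm6061 (adjusted p = 0.0786), which was at 0 in the 3 deep Cere Upf3b-KO libraries, missed the p threshold.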

How the data were processed

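RNA was measured in 16 libraries of frontal cortex and cerebellum from 4 Upf3b-null and 4 littermate Ctrl mice, as the study describes them. Total RNA was depleted of ribosomal RNA, made into libraries with the SMART-Seq v4 PLUS kit and sequenced in pairs on an Illumina NovaSeq instrument. The authors aligned reads to GRCm39 with STAR 2.5.2b, per the submitters' processing notes, and estimated transcript levels with RSEM, which divides a read that matches several transcripts between them. The deposited values are unscaled expected counts per transcript. The strand setting of the counting is not given in the sources used here.

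Gene types, positions and sequences were taken from GENCODE vM39, in which 141102 of the 142435 rows were found and 1333 were not. Expected counts were rounded, filtered with filterByExpr (minimum count 10, minimum total 15), scaled by TMM and tested with edgeR 4.0.16 (glmQLFit, glmQLFTest) in R 4.3.3 with limma 3.58.1, in 1 fit over all rows for each comparison, with Benjamini-Hochberg adjustment over all rows tested. The study's methods use EBSeq for transcripts, which was not used here. Rows were called where the adjusted p was under 0.01 and the groups differed over 2-fold. Standard errors were derived from the F statistic. CPM were taken over all rows of a library, and per kilobase of transcript where transcripts are compared. Cere Upf3b-KO 1 was left out for its low depth. The study used 4 mice per genotype, and each group has 4 libraries, though the labels do not name the mouse of each library. Pairs of libraries of a group differed by more than sampling noise.

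The parent is the gene named by the symbol, else the protein-coding gene with the best blastn 2.17.0 match (e-value 1e-10, word size 16, at least 50% of the row aligned). Parent levels are summed over rows of the gene. Shared sequence is the percent of a row's 50-base windows found, on either strand, in transcripts of another gene. Ratios of groups with up to 3 counts carry exact 95% intervals and, where a group was at 0, a floor of 3 counts over the group; both cover counting error only.

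Rows named are the 8 called higher and the 8 called lower with the smallest adjusted p in each genotype comparison, groups not overlapping; the 8 of highest mean CPM; up to 10 called rows with -ps in the symbol; the 5 called in both regions with the smallest larger adjusted p; the 3 per direction with the smallest adjusted p in the interaction; and the 5 per direction in the comparison of regions. All other called rows and Gm13841 are named too, and these were chosen after their values were seen. The members and lists were chosen with earlier results of these data known. The fits were tested on simulated data. Alternatives of 8 kinds were tried: DESeq2 1.42.0, median-of-ratios scaling, filters, rows summed per gene, each library left out, a replicate block, the shallow library included, and other windows or library totals. Further tools were Python 3.11.15, pandas 2.3.3 and the R package data.table in version 1.17.8.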

Additional observations from a re-analysis of the deposited data

Results flagged for a closer look

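In 174 groups of 4 libraries of the named rows, the highest or lowest library was tested for standing apart from the other 3, and chance flags about 1 in 20 such groups. A group with a single library above 0 is flagged whatever the level of that library, so the rate does not hold for those groups. In Cere Ctrl, Ppp1ccb was at 31.2 CPM in library 2 and at 22.9 to 24.2 in the others, Oaz2-ps at 0.55 in library 2 and 0.172 to 0.222 in the others, and Gm6685 at 0.109 in library 2 and 0.0414 to 0.0452 in the others. In the same group a single library was above 0 for 3 more rows, with Tma7-ps at 0.0294 CPM in library 2, Gm4535 at 0.0677 in library 3 and Gm7444 at 0.066 in library 3. In FC Ctrl, 3000002C10Rik was at 0.992 CPM in library 3 and 0.391 to 0.45 in the others, while Gm10355 at 0.0354 in library 1 and Gm48496 at 0.0059 in library 4 were above 0 in that library alone. In FC Upf3b-KO library 3, Gm7444 was at 7.94 CPM, against 7.36 to 7.43 in the others, and 3000002C10Rik was at 0.0376, against 0.

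The effect of genotype differed between the regions by the interaction test for Gm18860 (2.94 on the log2 scale) and Gm19026 (1.92).

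The library left out of the comparisons, Cere Upf3b-KO 1, held 64981 counts and gave counts for 109 of the rows, which summed to 2683 CPM. A count of 0 in it allows a level of up to 46.2 CPM for a single row.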

How the results depend on the processing

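Counts of called rows depended on the processing. With DESeq2 the counts were 39 higher in cerebellum (25 in the fit reported), 5 lower in frontal cortex, 3 lower in cerebellum, 23 lower between the regions and 11 higher in the interaction. With rows summed per gene there were 43 higher in cerebellum, 7 and 10 lower in frontal cortex and cerebellum, 14 higher and 22 lower between the regions, and 10 higher and 2 lower in the interaction. With no filter on low counts, 0 rows were lower in frontal cortex, 3 higher and 3 lower between the regions and 0 higher in the interaction, and with the stricter filter, under which fewer rows were tested, 0 were lower in frontal cortex and 1 between the regions. Including the shallow library left 15 higher in cerebellum, all of them among the 25, and 0 in the interaction. DESeq2 and the sum per gene kept all 31 and all 25 rows called higher. Median-of-ratios scaling left every one of these counts as it was.

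Libraries with the same replicate number did not deviate together (correlations of -0.0176 to 0.0188, and not every library was closest to its own number), so the numbers are not taken as pairs. With a replicate block the counts were 18 higher and 0 lower in frontal cortex, 8 higher in cerebellum, 2 higher and 1 lower between the regions and 1 higher in the interaction. The rows called higher under the block were all among the 31 and the 25.

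Leaving out each library in turn gave 23 to 29 higher and 0 to 0 lower in frontal cortex, 20 to 23 higher and 0 to 1 lower in cerebellum, 3 to 5 higher and 1 to 5 lower between the regions, and 0 to 3 higher and 0 to 1 lower in the interaction. The single lower call in cerebellum appeared without Cere Upf3b-KO 2 and that in the interaction without Cere Upf3b-KO 3. Between the regions, leaving out Cere Ctrl 4 gave 3 higher, FC Ctrl 1 gave 1 lower and FC Ctrl 3 or 4 gave 3 lower. In the interaction, leaving out Cere Ctrl 4 or any deep Upf3b-KO library gave 0 higher, and FC Ctrl 3 or 4 gave 1.

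With library totals taken without the 20 largest rows, the summed levels were 1677, 1994, 1580 and 2043 CPM in FC Ctrl, FC Upf3b-KO, Cere Ctrl and Cere Upf3b-KO. With full library totals, Cere Upf3b-KO summed to 2095 CPM when the shallow library was included and 1900 without it. The summed means ran from 1519 to 1552, 1826 to 1847, 1464 to 1496 and 1894 to 1910 CPM when each library was left out. The median shared sequence of called rows was 42.7% with 100-base windows and 63.3% when only deposited rows were searched, a setting chosen after seeing the data, and that of rows not called was 63.6% and 73.6%. Of 1649 log2 fold changes of named rows over these settings, 1430 kept their direction and side of the threshold, 200 lost the call, 15 gained one, 4 of rows that were not called moved in value and none was reversed. Rows under 1 CPM in Ctrl rest on few counts, and depth limits their fold changes.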
